A study of Homo sapiens with 74 samples.

Results

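A set of 3346 open chromatin regions of human HAP1 cells was described here, chosen because their accessibility lay high in cells without DPF2 and low in cells without SMARCA4. HAP1 is a near-haploid line derived from a chronic myeloid leukaemia. The readout was ATAC-seq: a transposase inserts sequencing adapters where chromatin is open, and the reads falling in each region are counted. The regions, called members below, were found among the 145536 regions of the knockout count table, of which 138795 lie on autosomes. Counts were scaled to the same total in every library (CPM, a count relative to all counts in regions), and 0.5 was added before taking log2. The reference for each region was the mean of this log2 value over 42 libraries of the first wild-type and knockout set, all except those of DPF2 and SMARCA4. Of the autosomal regions, 113356 had a mean reference level of at least 2 CPM and were eligible. A member had a mean DPF2 value at least 0.5 above and a mean SMARCA4 value at least 0.5 below the reference, so the values of those knockouts in this table chose the members and are given as a description, without a test.

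SMARCA4 (BRG1) is an ATPase of the BAF (SWI/SNF) chromatin remodelling complexes, which slide or evict nucleosomes and so keep many enhancers open. SMARCA4 and its paralog SMARCA2 are alternative motors of these complexes. DPF2 (BAF45D) is a subunit with paired PHD fingers that binds acylated histone tails and belongs to the canonical BAF complex, which also holds ARID1A or ARID1B. ARID2, PBRM1, BRD7 and PHF10 define the PBAF complex, and BRD9 the non-canonical complex. SMARCC1, SMARCC2 and the SMARCD proteins form the core on which all of them are built.

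The rule used DPF2 knockout cells (1 clone, 2 libraries) and SMARCA4 knockout cells (clones 4 and 6, 2 libraries each). The 42 reference libraries came from unedited wild-type HAP1 cells (2 libraries), from 2 clones of ARID1A knockout (4 libraries) and from 1 clone, with 2 libraries each, of knockouts of ACTB, ARID1B, ARID2, BCL11A, BCL11B, BCL7A, BCL7B, BRD7, BRD9, DPF1, DPF3, PBRM1, PHF10, SMARCA2, SMARCC1, SMARCD1, SMARCD2 and SMARCD3. These 48 libraries are called set 1. A further 8 libraries with another title format, called set 2, held wild type, a second clone each of ARID1B and BCL7B knockout, and SMARCC2 knockout, with 2 libraries each. A separate knockdown table held 16 libraries in 8 groups of 2, none of which entered the rule. Its groups were wild-type cells with control, SMARCA4, ARID2 or combined SMARCA4 and ARID2 knockdown, ARID2 knockout cells with control or SMARCA4 knockdown, and SMARCA4 knockout cells with control or ARID2 knockdown. Titles mark the knockdowns as sh and another label field as si, and no clone is named for the knockouts in that table. Each knockout rests on 1 or 2 clones, so an effect of a clone and of the lost gene cannot be told apart for most genes. Nothing in the labels says that replicates were separate cultures, so p-values measure the spread between these libraries, which may be technical.

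Set 1 libraries held between 7855389 and 12422345 counts, set 2 libraries between 5085811 and 7331537, and knockdown libraries between 5355899 and 12432292. The median count at a member ranged from 18 to 117 over the knockout table and from 20 to 78 over the knockdown table, so counting error at a single member is sizeable. Over all eligible regions, the median distance of a library from the reference stayed between -0.09 and 0.09 (log2). The share of counts in the most accessible 10% of regions ranged from 41.4% to 49.7% in set 1 and from 39.1% to 45.1% in set 2. It was 48.8% to 49.6% in the SMARCA4 libraries, 45.8% and 46.9% in those of DPF2, and 42.1% and 45.5% in wild type of set 1. The part of this in the distances from the reference was not tested. Whether the targeted genes were lost was not checked here, since accessibility does not show it.

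Members made up 2.95% of the eligible regions. They were 53.4% of the 6265 regions with DPF2 at least 0.5 above the reference and 12.9% of the 25885 regions with SMARCA4 at least 0.5 below it. The background shares were 5.53% of eligible regions for the DPF2 threshold and 22.8% for the SMARCA4 threshold. The mirror pattern, DPF2 low and SMARCA4 high, held in 535 regions. Regions high in both knockouts numbered 544 and regions low in both 2461. Regions low without SMARCA4 that did not reach the DPF2 threshold numbered 22539 and are called lost-only below.

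**Figure D1:**
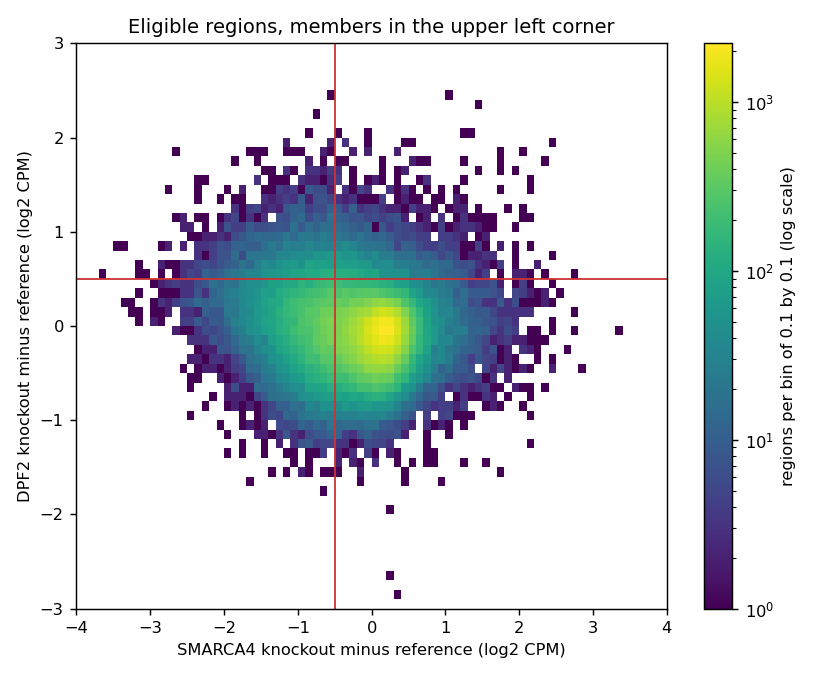
Eligible regions by the distance of SMARCA4 knockout (horizontal axis) and DPF2 knockout (vertical axis) from the reference, in log2 CPM, with colour giving the number of regions per bin on a log scale and red lines at the thresholds of -0.5 and 0.5. The 3346 members lie to the left of the vertical line and above the horizontal line, at the edge of a continuous cloud.

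Within the members, the distance of DPF2 knockout from the reference ran from 0.50 to 2.41 with a median of 0.68 (log2). That of SMARCA4 knockout ran from -3.65 to -0.50 with a median of -0.99. Both DPF2 libraries exceeded all 42 reference libraries at 358 members, beside 0.619% of eligible regions. All 4 SMARCA4 libraries were below all 42 at 270 members, beside 1.89% of eligible regions. Most members therefore lay high or low on average while overlapping single reference libraries. At the DPF2 threshold, the 3 members just inside had distances of 0.50004 to 0.50020 and the 3 regions just outside 0.49986 to 0.49998. At the SMARCA4 threshold the corresponding values were -0.50145 to -0.50041 and -0.49928 to -0.49844. No gap in the values separated members from non-members.

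The level of the members differed widely among the other genotypes. The median over members of a library's distance from the reference was -1.04 and -1.10 in SMARCA4 clone 4 and -0.98 and -0.97 in clone 6. In ARID1A knockout it was -0.71 and -0.80 in clone 3 and -0.71 and -0.68 in clone 10, and in SMARCC1 knockout -0.39 and -0.36. ARID2 knockout followed with -0.19 and -0.04. Every other set 1 knockout lay between -0.04 and 0.36, with wild type of set 1 at 0.14 and 0.19. The libraries of DPF2 knockout stood highest, at 0.62 and 0.80. Neighbouring groups in the stretch from ACTB to BCL11B overlapped or lay as close to each other as replicates of a group do.

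The wild type of set 2, which the rule did not use, stood close to DPF2 knockout, at 0.46 and 0.52. The other set 2 groups were at 0.47 and 0.53 (SMARCC2 knockout), 0.32 and 0.47 (ARID1B clone 5) and 0.32 and 0.36 (BCL7B clone 10). The median member was 0.57 (log2) higher in DPF2 knockout than in wild type of set 1 and 0.25 higher than in wild type of set 2. Both DPF2 libraries exceeded both wild-type libraries of set 1 at 2689 members, beside 16.8% of eligible regions. They exceeded both wild-type libraries of set 2 at 1583 members, beside 22.6%, and lay below both at 566, beside 24.6%. For SMARCA4 the choice of wild type mattered less: all 4 SMARCA4 libraries lay below both wild-type libraries of set 1 at 2988 members, beside 26.2%, and below both of set 2 at 3004, beside 26.3%. In edgeR's quasi-likelihood test across the knockout table, with Benjamini-Hochberg adjustment over all regions and a threshold of 0.05 as for every call below, 693 members were higher in wild type of set 2 than in wild type of set 1 and 52 lower, beside 4.29% higher and 1.54% lower of all regions tested. The count higher was 436 and 253 without the first and second wild-type library of set 1, and 374 and 403 without those of set 2. The member with the largest such rise, chr7:136267266-136267898, had 1.07 and 1.26 CPM in set 1 and 12.0 and 11.4 in set 2. With wild type of set 2 in place of the 42 libraries as the reference, 1371 regions met the rule, of which 832 were members. The distance of DPF2 knockout at the median member was thus smaller against wild type of set 2 than against wild type of set 1, and the part played by the difference between the sets was not tested.

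**Figure D2:**
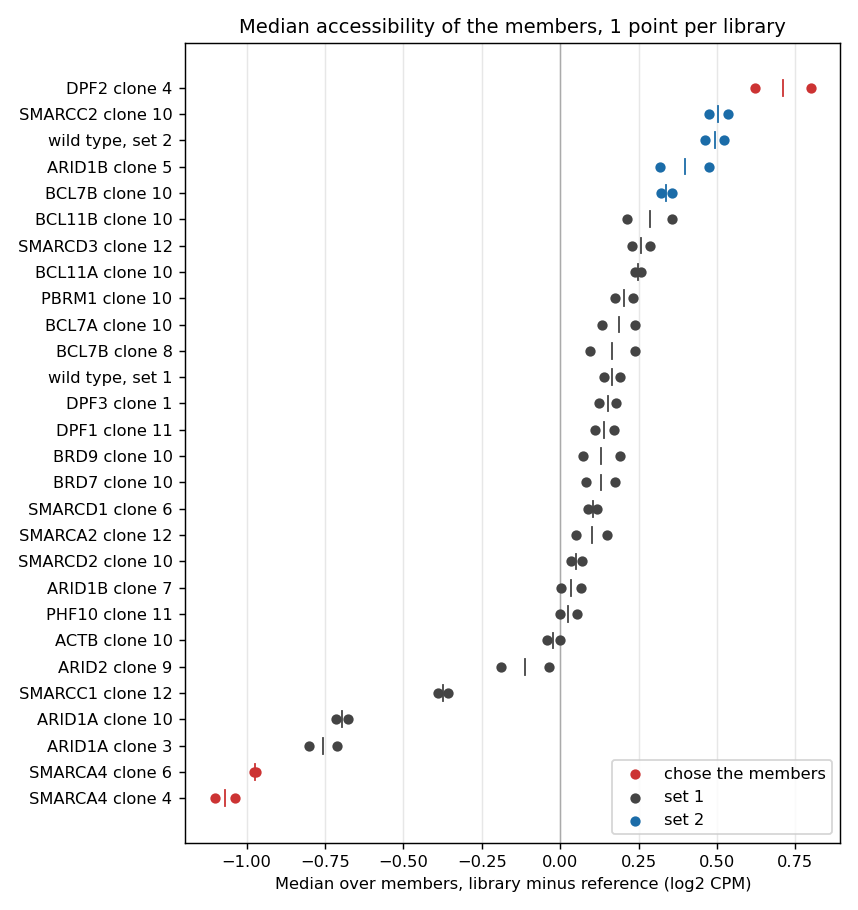
Median over the 3346 members of each library's distance from the reference (horizontal axis, log2 CPM), with 1 point per library, a bar at the mean of each group and groups ordered by that mean. SMARCA4 and ARID1A knockouts stand apart on the left, and DPF2 knockout is on the right next to the 4 groups of set 2 (blue), among them wild type at 0.46 and 0.52.

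The 8 members with the largest smaller gap (the smaller of the DPF2 and SMARCA4 distances) show how strong the opposition was at its clearest, and all 8 were chosen by these values. At chr21:28419401-28420301, the first of them, the DPF2 libraries had 44.1 and 38.6 CPM and the SMARCA4 libraries 1.82, 1.10, 1.03 and 1.85 CPM. The 42 reference libraries ranged from 0.880 to 32.3 CPM with a median of 17.6. Wild type had 31.4 and 26.6 CPM in set 1 and 39.4 and 36.3 in set 2, so the DPF2 libraries overlapped wild type of set 2, while ARID1A knockout (2.12, 2.45, 1.88 and 2.89 CPM) and ARID2 knockout (3.31 and 3.35 CPM) lay near the SMARCA4 level. The second, chr4:30057544-30058422, had 28.9 and 19.0 CPM without DPF2 and 28.1 and 22.7 in wild type of set 2, against 11.9 and 11.6 in wild type of set 1. There DPF2 knockout did not separate from wild type of set 2.

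At chr1:163805455-163806238 the DPF2 libraries, with 32.7 and 24.0 CPM, exceeded the wild-type libraries of both sets, which had 12.6 and 9.96 CPM in set 1 and 14.5 and 12.2 in set 2. At chr14:87616117-87616798 the DPF2 libraries had 19.5 and 17.6 CPM and the 4 wild-type libraries 7.58, 8.45, 6.55 and 7.29. At chr10:44866095-44866852 they had 18.7 and 18.8 CPM and the 4 wild-type libraries 6.32, 5.80, 6.68 and 5.25. At these regions DPF2 knockout stood above all reference libraries too, whose highest values were 21.6, 15.2 and 12.9 CPM. The same held at chr3:186997519-186998184, with 23.0 and 16.1 CPM without DPF2, 10.3, 7.94, 6.82 and 6.27 in wild type and a highest reference value of 14.3. The other 2 of the 8, chr13:104307921-104308543 and chr11:126700127-126700799, had lowest DPF2 values of 8.99 and 32.6 CPM, under the highest reference values of 9.21 and 34.7.

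In the knockdown table, which the rule did not use, all 8 were called lower in SMARCA4 knockout than in wild type, each with control knockdown. This stands beside 8.26% of all regions tested. All 8 had SMARCA4 distances below -1.5, a range in which 92.8% of members and 88.5% of regions short of the DPF2 threshold were called lower. The falls ran from 1.32 ± 0.37 (log2, SE) at chr3:186997519-186998184 (adjusted p = 0.00984, edgeR) to 3.91 ± 0.42 at chr21:28419401-28420301 (adjusted p = 3.52e-10, edgeR). At the latter, wild type with control knockdown had 29.4 and 31.4 CPM and SMARCA4 knockout 2.27 and 1.91. SMARCA4 knockdown in wild-type cells left 8.82 and 7.40 CPM there, between the knockout and the control. At chr3:186997519-186998184, by contrast, SMARCA4 knockdown gave 9.99 and 8.46 CPM against 8.01 and 8.24 in the control (log2 fold change 0.16 ± 0.34, adjusted p = 0.852, edgeR).

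**Figure D3:**
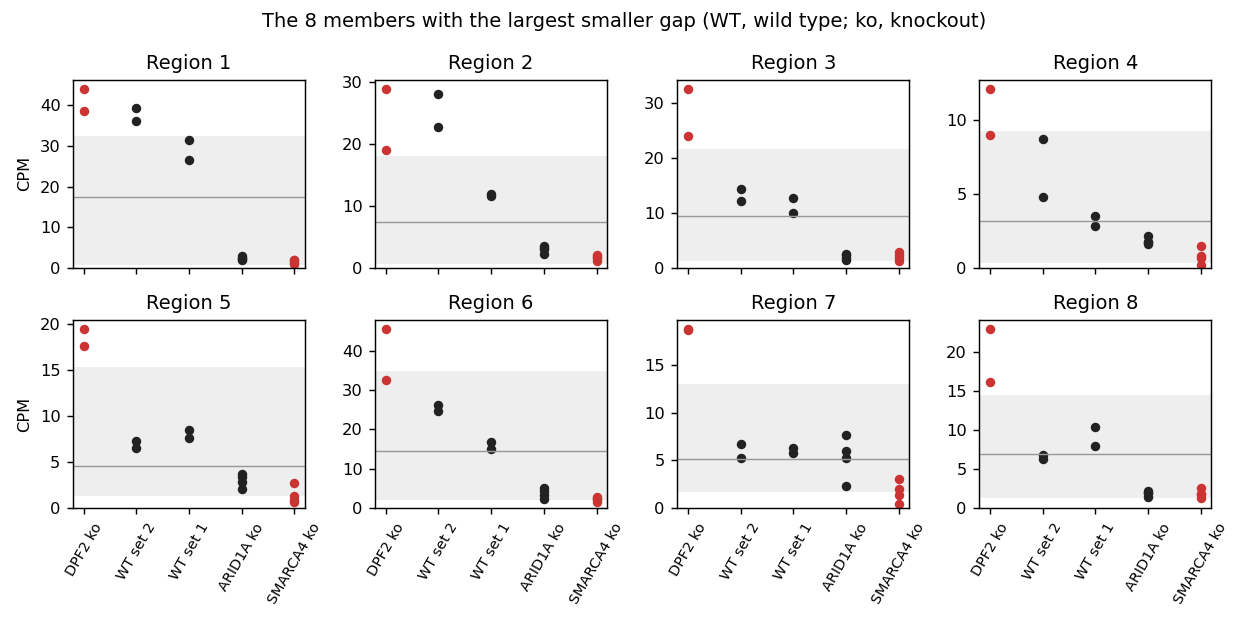
CPM at the 8 members with the largest smaller gap, in the order in which rank 1 is chr21 and rank 8 is chr3, with 1 point per library, and with the range (grey band) and median (grey line) of the 42 reference libraries. SMARCA4 points lie below all wild-type points in every panel, and the DPF2 points overlap those of wild type of set 2 in regions 1 and 2 and exceed them in the other 6.

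Members were somewhat wider and more accessible than eligible regions as a whole. Their median width was 717 bp against 660 bp, and their median reference level 5.61 CPM against 4.18. Over 4 equal groups by width, from narrow to wide, 0.392%, 3.15%, 4.86% and 3.41% of eligible regions were members. Over 4 equal groups by reference level the shares were 1.33%, 2.45%, 4.59% and 3.44%, so the share peaked in the group above the middle by either measure. Lost-only regions had a median width of 708 bp and a median reference level of 4.56 CPM. The thresholds act on values whose counting error is largest at low levels, and the part of that in these shares was not tested.

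Members were spread over all 22 autosomes and 510 of the 556 windows of 5 Mb with at least 20 eligible regions. Shares per chromosome ran from 3.83% of eligible regions on chromosome 5 (260 members) to 0.281% on chromosome 19 (9 members). Chromosomes 16, 15, 17 and 22 were also low, at 1.23%, 1.21%, 0.819% and 0.604%. Chromosomes differed as well in regions with SMARCA4 at least 0.5 below the reference, with 1759 on chromosome 5 and 99 on chromosome 19. Of these regions 14.8% and 9.09% were members. Over all autosomes that share ran from 18.6% on chromosome 21 to 5.95% on chromosome 22. The highest median DPF2 distance of a window over its eligible regions was 0.27. No such window of 5 Mb was thus shifted as a whole by the size of the threshold. The median distance from a member to the nearest other was 178931 bp, and 35.7% had one within 100 kb. Of the runs of members with no other eligible region between them, 2736 held 1 member and the longest held 5, at chr20:12550891-12895378. A further 231 runs held 2 members, 37 held 3 and 8 held 4. Members were 2.95% of eligible regions, a share at which single runs prevail unless members cluster strongly. Whether members clustered was not tested. The 2919 eligible regions that reached only the DPF2 threshold were spaced alike, at a median of 220396 bp, with 31.4% within 100 kb.

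The largest groups in which neighbours lay within 1 Mb held 30 members each, at chr14:79058736-86480524 and chr7:111630552-117126478. In the chromosome 14 group the median distance from the reference was 0.69 for DPF2 and -1.05 for SMARCA4, and over its 218 eligible regions 0.11 and -0.67. In the chromosome 7 group the members' medians were 0.71 and -1.09, and those of its 273 eligible regions 0.01 and -0.33. In both groups the surrounding regions were low without SMARCA4 as well, while their DPF2 values lay near the reference. No genome of the files' build was used here, so sequences and nearby genes of the members were not analysed here.

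Members were lower in SMARCA4 knockout cells also in the libraries that the rule did not use. With control knockdown in both, the median CPM over members was 6.87 and 7.48 in wild type and 2.99 and 3.14 in SMARCA4 knockout cells. Of the 3346 members, 1683 were called lower and 1 higher, beside 8.26% lower and 1.49% higher of all regions tested (9.38% lower of eligible regions), with a median log2 fold change of -1.20. Over all 145617 regions tested the median was 0.08. The counts lower were 974 and 1043 without the first and second SMARCA4 knockout library, and 1179 and 1211 without the wild-type ones. Of the 22539 lost-only regions 7956 were called lower, with a median of -0.93, and the difference between the sets of regions was not tested.

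The largest falls in SMARCA4 knockout cells removed nearly all reads. At chr9:106007563-106008141 wild type with control knockdown had 21.8 and 27.4 CPM and SMARCA4 knockout 0.478 and 1.5 (log2 fold change -4.71 ± 0.51, adjusted p = 4.02e-10, edgeR). At chr11:21578263-21579430 the values were 25.8 and 29.8 against 0.957 and 1.78 CPM, and at chr1:163765452-163766234 26.2 and 30.7 against 1.67 and 1.37. SMARCA4 knockdown in wild-type cells left far more at these regions, with 19.3 and 15.9, 21.2 and 17.8, and 24.1 and 17.3 CPM. At chr11:55198484-55199439, the most accessible of the 5, knockdown left 20.2 and 13.2 CPM of 36.1 and 38.4, and knockout 2.03 and 2.59. The exception was chr4:92287555-92288170, where knockdown (1.07 and 1.23 CPM) came close to knockout (0.239 and 0.819) from 9.95 and 10.4 in the control.

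The single member called higher in SMARCA4 knockout cells of the knockdown table, chr2:58770511-58771167, had 2.2 and 1.65 CPM in wild type and 4.78 and 5.19 in the knockout (log2 fold change 1.27 ± 0.41, adjusted p = 0.0332, edgeR). Its SMARCA4 libraries in the knockout table had 0.971, 2.65, 3.59 and 3.40 CPM, below the mean reference level of 4.29. That reference is the mean of 42 libraries and not wild type alone, so the directions in the tables cannot be compared directly. The call did not hold without any 1 of the 4 libraries (adjusted p from 0.0871 to 0.274, edgeR) or with DESeq2 (adjusted p = 0.0856).

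SMARCA4 knockdown in wild-type cells lowered the members to 3.49 and 4.23 CPM (median over members). It lowered 1007 members and raised 9, beside 4.96% and 0.773% of all regions tested, with a median log2 fold change of -0.86. Without 1 library the counts lower were 468 and 522 (first and second knockdown library) and 560 and 533 (control libraries). This contrast shares its control libraries with that of SMARCA4 knockout, and 868 members were lower in both, beside 3.83% of all regions, and 1822 in either, beside 9.38%. The largest fall was at chr4:115807717-115808459, from 7.75 and 9.63 to 0.776 and 0.705 CPM (log2 fold change -3.52 ± 0.49, adjusted p = 2.03e-06, edgeR). It was followed by chr7:53236339-53237078, from 7.05 and 5.32 to 0.970 and 0.176 CPM.

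A few members opened on SMARCA4 knockdown, compared with control knockdown. The SMARCA4 knockout clones lay low there against another reference, the mean of the 42 libraries. At the 3 regions named below, SMARCA4 knockout cells were not called lower than wild type with the same control knockdown. Their log2 fold changes in that contrast were -0.28, 1.27 and 0.80, in the order named. The largest rise was at chr4:96298422-96299283, from 3.52 and 4.06 CPM to 17.3 and 16.4 (log2 fold change 2.12 ± 0.36, adjusted p = 5.05e-05, edgeR), while SMARCA4 knockout cells had 3.35 and 3.14. It rose as well with combined knockdown, to 25.4 and 18.6 CPM. The next rises, at chr2:58770511-58771167 and chr14:32528574-32529372 (adjusted p = 0.0420 and 0.0301, edgeR), did not pass with DESeq2 (adjusted p = 0.0972 and 0.0971). Left-out libraries ended the latter call in each of the 4 cases (adjusted p from 0.0793 to 0.331, edgeR). They ended the former in 3 of 4 (adjusted p = 0.116, 0.317 and 0.586, edgeR), with a log2 fold change of 0.65 without the first knockdown library.

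Loss of ARID2, the DNA-binding subunit of PBAF, was compared in the same table. ARID2 knockdown left a median member level of 7.59 and 7.09 CPM, overlapping the control, and called no member in edgeR or in DESeq2. At an unadjusted p under 0.05, 156 members were lower and 51 higher, beside 1.86% and 2.37% of all regions. ARID2 knockout cells with control knockdown had 5.87 and 5.80 CPM, below both control libraries. In them 162 members were called lower and 1 higher, beside 0.374% and 0.0446%, with a median log2 fold change of -0.44. The count lower was 33 and 55 without the first and second ARID2 knockout library and 57 without either control library. The largest fall was at chr10:37304891-37305508, from 6.08 and 8.24 to 0.602 and 0.544 CPM (log2 fold change -3.78 ± 0.59, adjusted p = 6.75e-05, edgeR). The lone rise was at chr6:33019447-33020501, from 2.47 and 1.90 to 9.04 and 7.79 CPM, and it did not pass without any 1 of the 4 libraries (adjusted p from 0.123 to 0.403, edgeR). ARID2 knockdown in SMARCA4 knockout cells called no member in edgeR or in DESeq2, and at an unadjusted p under 0.05, 144 were lower and 160 higher, beside 1.94% and 2.54% of all regions.

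Combined knockdown of SMARCA4 and ARID2 gave 3.87 and 4.52 CPM, close to SMARCA4 knockdown alone. It lowered 779 members and raised 17, beside 4% and 0.618% of all regions, with a median log2 fold change of -0.77. Without 1 library the counts lower were 246 and 312 (combined knockdown) and 384 and 346 (control). The largest fall was at chr2:197292393-197293217, from 8.28 and 13.1 to 0.407 and 2.18 CPM. In ARID2 knockout cells, SMARCA4 knockdown brought the median member from 5.87 and 5.80 CPM to 3.73 and 3.91. It lowered 38 members and raised none, beside 0.139% and 0.0556%, with a median log2 fold change of -0.42. Without the first control library 9 were lower, and without the second knockdown library 8. The largest of these falls, at chr9:76970047-76970640, went from 3.61 and 6.53 to 0.560 and 0.451 CPM. The effect of SMARCA4 knockdown in ARID2 knockout cells minus that in wild-type cells had a median of 0.44 (log2) over members, with no member called in either direction (edgeR). At an unadjusted p under 0.05, 385 members had a weaker and 23 a stronger fall in ARID2 knockout cells, beside 2.75% and 2.45% of all regions.

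**Figure D4:**
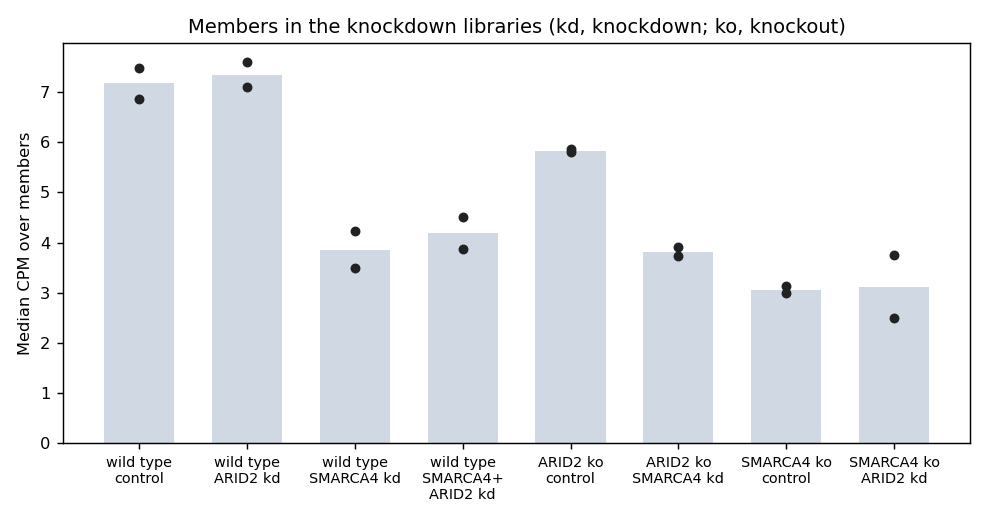
Median CPM over the 3346 members in each of the 16 knockdown libraries (points), with bars at the mean of the 2 libraries of a group. The 10 libraries with SMARCA4 lost or knocked down lie between 2.49 and 4.52 CPM, below the other 6 at 5.80 to 7.59.

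Among regions low without SMARCA4, the fall in the knockdown table was set beside the DPF2 value. The 25885 such regions were split by the DPF2 distance from the reference. From DPF2 at least 0.5 below, through below and above by less than 0.5, to the members, 28.5%, 32.3%, 39.4% and 50.3% were called lower in SMARCA4 knockout with control knockdown. The median log2 fold changes were -0.83, -0.89, -0.99 and -1.20. For SMARCA4 knockdown in wild-type cells the shares were 17.3%, 18.6%, 22.4% and 30.1%, and for ARID2 knockout with control knockdown 0.610%, 0.585%, 1.40% and 4.84%. The 4 groups differed in depth as well, with median reference levels of 3.68, 4.13, 5.45 and 5.61 CPM, and in the SMARCA4 distance itself, with medians of -0.79, -0.80, -0.87 and -0.99. Depth raises the share that a test can call, and its part here was not tested.

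The comparison was repeated within ranges of the SMARCA4 distance. For distances of -0.75 to -0.5, 21.4% of 915 members and 15.2% of 9106 other regions were lower in SMARCA4 knockout with control knockdown. For -1 to -0.75 the shares were 37.4% of 784 and 30.6% of 6067, for -1.5 to -1 61.3% of 1061 and 56.2% of 5563, and below -1.5 92.8% of 586 and 88.5% of 1803. In ARID2 knockout with control knockdown the corresponding pairs were 2.08% and 0.428%, 4.34% and 0.841%, 4.90% and 1.53%, and 9.73% and 2.55%. For SMARCA4 knockdown in ARID2 knockout cells the median log2 fold changes of members and others were -0.22 and -0.23, -0.37 and -0.36, -0.48 and -0.49, and -0.67 and -0.70. No difference between members and the other regions was tested in any range. Within the members, split into 3 equal groups by DPF2 distance, 8.78% of the group with the largest distance were called lower in ARID2 knockout with control knockdown, 3.32% of the middle group and 2.42% of the lowest.

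The other knockouts were compared with wild type of their own set. All set 1 contrasts share the same 2 wild-type libraries, so their values are given side by side. Across 20 genes, 2491 members passed in some knockout, beside 19.1% of all regions tested. Lower in at least 1 were 2259, beside 13.5%, higher in at least 1 were 620, beside 7.15%, and 388 were lower in 1 and higher in another, beside 1.5%. A total of 855 members were called in none. The set 1 knockouts entered the rule as part of the mean of 42 libraries, which their low values pull down.

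ARID1A, the large DNA-binding subunit that joins SMARCA4 in canonical BAF, gave the most members called among the 20 contrasts. In its knockout 2018 members were lower and 23 higher, beside 10.3% and 2.27% of all regions tested, with a median log2 fold change of -0.99. The count lower was 1342 without the first wild-type library and at least 1671 without any other single library, and the count higher was 13 and 11 without the first and second wild-type library. Clones 3 and 10 differed at 10 members, 6 lower and 4 higher in clone 3, beside 0.0337% and 0.0261%. Of the 1683 members lower in SMARCA4 knockout with control knockdown, 1240 (73.7%) were also lower in ARID1A knockout, which is 61.4% of the latter, and these contrasts share no library. Over all eligible regions, 56.1% of those lower in SMARCA4 knockout with control knockdown were lower in ARID1A knockout, which is 43.3% of the latter. Whatever the SMARCA4 call, 60.3% of members and 12.2% of eligible regions were lower in ARID1A knockout. The 73.7% thus lay closer to its base share than the 56.1% did, and no difference was tested. Lost-only regions had 8332 of 22539 lower and a median of -0.64. The largest fall was at chr21:28419401-28420301, already described (log2 fold change -3.61 ± 0.21, adjusted p = 2.41e-34, edgeR). The largest rise, at chr14:27388670-27389466, went from 2.14 and 3.28 CPM in wild type of set 1 to 5.30, 10.9, 7.82 and 8.77 (log2 fold change 1.63 ± 0.28, adjusted p = 2.24e-06, edgeR). No ARID1A library there exceeded the higher wild-type library of set 2, whose values are given with ARID1B below. With ARID1A and SMARCC1 left out of the reference, 2466 regions met the rule, of which 2262 were members.

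ARID1B, the paralog of ARID1A, gave a mixed picture that differed between clones. Over both clones 333 members were lower and 181 higher, beside 1.46% and 1.76%. Clone 7, against wild type of set 1, had 425 lower and 547 higher, beside 3.19% and 6.03%. Clone 5, against wild type of set 2, had 73 lower and 4 higher, beside 0.205% and 0.0701%. A test of the difference between the clone effects called 400 members higher and 146 lower in clone 7, beside 3.7% and 1.27%. The largest fall over both clones was at chr11:38343091-38343878, to 1.62 and 1.53 CPM in clone 5 and 0.978 and 0.799 in clone 7, from 19.2 and 17.8 in wild type of set 2 and 12.9 and 9.45 in set 1. The largest rise was at chr14:27388670-27389466, the region that also rose most without ARID1A, to 15.7 and 19.2 CPM in clone 5 and 12.6 and 15.2 in clone 7. Wild type of set 2 had 10.2 and 12.2 CPM there, so the rise in clone 5 was smaller than that in clone 7. Without the second wild-type library of set 1, 98 members were higher over both clones.

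Few members were called without the paralogs of DPF2. DPF1 knockout had 11 members lower and 2 higher, beside 0.0378% and 0.0137%, and DPF3 knockout 9 lower and 10 higher, beside 0.0302% and 0.0364%. Their medians were -0.02 and 0.06 (log2). PHF10, the related PHD-finger subunit of PBAF, had 70 lower and 23 higher, beside 0.243% and 0.148%, with a median of -0.11. Without the first or second wild-type library, the counts lower were 3 and 9 for DPF1, 4 and 5 for DPF3 and 21 and 37 for PHF10, and the counts higher 0 and 0, 5 and 5, and 5 and 3. The largest fall without PHF10 was at chr11:37553799-37554905, from 19.0 and 17.5 to 2.77 and 1.86 CPM (log2 fold change -2.95 ± 0.28, adjusted p = 1.03e-15, edgeR). None of the 3 knockouts had a median level of members above the highest wild-type library of set 1 in both its libraries.

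Of the PBAF subunits, ARID2 knockout lowered the most members. It had 321 lower and 32 higher, beside 1.11% and 0.682%, with a median of -0.27. Without the first wild-type library 146 were lower and 13 higher, and without the second 249 and 11. Of the 162 members lower in ARID2 knockout in the knockdown table, 101 (62.3%) were lower here too, 31.5% of the 321. Over all eligible regions the shares were 54.0% and 17.4%. Whatever the call in the knockdown table, 9.59% of members and 1.30% of eligible regions were lower here. The largest fall was at chr16:80079970-80080676, from 13.2 and 12.9 to 0.518 and 1.08 CPM (log2 fold change -4.02 ± 0.35, adjusted p = 8.13e-18, edgeR). BRD7 knockout had 120 lower and 59 higher, beside 0.312% and 0.383%, and PBRM1 knockout 61 and 47, beside 0.243% and 0.18%. Without the first or second wild-type library the counts lower were 57 and 75 (BRD7) and 14 and 27 (PBRM1), and the counts higher 21 and 13, and 9 and 4. At chr2:80688766-80689472 BRD7 knockout had 0.943 and 2.47 CPM against 16.7 and 10.2, and at chr2:125051031-125051668 PBRM1 knockout had 0.930 and 0.802 against 5.35 and 6.43. BRD9, of the non-canonical complex, had 82 lower and 32 higher, beside 0.238% and 0.26%, and 25 and 47 lower and 10 and 8 higher without the first or second wild-type library. Its largest fall was at chr2:198063408-198064074, from 4.18 and 4.54 to 0.512 and 0.634 CPM.

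Among core subunits, SMARCC1 (BAF155) knockout had the most members called. Its knockout lowered 902 members and raised 68, beside 4.19% and 1%, with a median log2 fold change of -0.57. The count lower was 465 without the first wild-type library, and 501 and 582 without its own first and second library. Without the first and second wild-type library 38 and 32 were higher. Lost-only regions had 3293 of 22539 lower and a median of -0.44. In 2 members lying near each other, chr9:82681637-82682333 and chr9:82772327-82772939, the 2 SMARCC1 libraries held no read. Counts do not tell a closed region from one missing in this single clone, and which held was not tested. At chr9:82681637-82682333 wild type had 45 and 58 counts, so that, against a floor of 3 counts over both libraries, the level was at least 38-fold lower. SMARCC2 (BAF170), its paralog, had 11 lower and 10 higher against wild type of set 2, beside 0.0584% and 0.0357%, and 6 and 5 lower and 2 and 1 higher without the first or second of those wild-type libraries.

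The knockouts of the SMARCD paralogs were each compared with wild type, and no difference between them was tested. SMARCD1 knockout had 228 lower and 144 higher, beside 0.814% and 0.764%. SMARCD2 knockout had 64 lower and 28 higher, beside 0.201% and 0.223%, and SMARCD3 knockout 68 lower and 109 higher, beside 0.368% and 0.474%. Without the first or second wild-type library the counts lower were 110 and 159, 14 and 39, and 27 and 36, and the counts higher 60 and 43, 16 and 7, and 40 and 21, so the balance of lower and higher turned for SMARCD2 without the first and for SMARCD3 without the second. The largest fall without SMARCD1 was at chr14:81166016-81167873, from 18.7 and 15.5 to 0 and 0.190 CPM, where the DPF2 libraries had 24.9 and 20.5. Whether this region was present in the single SMARCD1 clone was not tested. ACTB, the actin subunit, had 240 lower and 67 higher, beside 0.519% and 0.833%, and 86 and 143 lower and 26 and 18 higher without the first or second wild-type library. SMARCA2, the alternative ATPase, had 77 lower and 13 higher, beside 0.16% and 0.0742%, and 25 and 60 lower and 6 and 4 higher without those libraries. At chr2:60621592-60622609 its libraries held no read against 62 and 64 counts in wild type, at least 50.4-fold lower by the same floor. Whether the region was present in that clone was not tested.

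BCL11A and BCL11B are zinc-finger proteins found with BAF complexes. BCL11A knockout had 91 higher and 46 lower, beside 0.38% and 0.295%, and BCL11B knockout 132 higher and 50 lower, beside 0.535% and 0.357%. Their medians were 0.14 and 0.19 (log2). The counts higher were 27 and 18, and 66 and 28, and the counts lower 15 and 25, and 26 and 26, without the first or second wild-type library, so more BCL11A calls were lower than higher without the second. The largest rise in both, and in SMARCD3 knockout, was at chr12:62114063-62114710, from 2.14 and 2.39 CPM to 16 and 13.5 (BCL11A), 15.4 and 17.5 (BCL11B) and 16 and 10.5 (SMARCD3). Wild type of set 2 had 7.64 and 6.56 CPM there, between those knockouts and wild type of set 1. BCL7A knockout had 32 lower and 32 higher, beside 0.189% and 0.278%, with 15 lower without either wild-type library and 12 and 9 higher.

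BCL7B knockout had 250 lower and 60 higher over its 2 clones, beside 0.783% and 0.62%, and 160 lower without the first and 27 higher without the second wild-type library of set 1. Clone 8, against wild type of set 1, had 230 lower and 331 higher, beside 1.33% and 3.5%, and clone 10, against wild type of set 2, 176 lower and 12 higher, beside 0.55% and 0.192%. A test of the difference called 410 members higher and 75 lower in clone 8, beside 3.41% and 0.901%. The largest rise over both clones was at chr5:134824326-134825036, to 13.9 and 16.9 CPM in clone 10 and 17.6 and 14.6 in clone 8, from 3.50 or less and 4.92 or less in the wild types of sets 2 and 1.

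Several members were the largest change of more than 1 knockout. At chr6:63443519-63444775 BRD7 knockout had 13.6 and 12.2 CPM, SMARCC1 knockout 10.7 and 11.6 and SMARCD1 knockout 15.1 and 16.1, each called higher than wild type of set 1 at 2.33 and 1.26. DPF2 knockout had 13.6 and 10.0 CPM there and SMARCA4 knockout between 0.971 and 1.44. At chr21:25701999-25702604 ACTB knockout (0.202 and 0.269 CPM), BCL7A knockout (0 and 0.774) and BCL11B knockout (0.337 and 0.792) were called lower than wild type at 3.99 and 5.29. DPF2 knockout, with 4.74 and 2.97 CPM, overlapped wild type at that region, and its mean lay 0.92 (log2) above the reference.

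The balance of lower and higher members in a number of single knockouts turned with the reference. Against wild type, 14 of the 19 genes with set 1 libraries had more members lower than higher. Against the mean of the other set 1 knockouts, 3 of these 14 (ARID1A, SMARCC1 and ARID2) kept more lower, with 2567, 1092 and 441 lower and 50, 148 and 224 higher. In the other 11 more members were higher. ACTB knockout had 354 lower and 403 higher, and SMARCD1 knockout 242 lower and 670 higher. ARID1B and BCL7B are among the 11. Their counts against wild type averaged a clone of each set, while those against the other knockouts used the set 1 clone only. Against wild type of set 1 that clone alone had 425 lower and 547 higher for ARID1B, and 230 and 331 for BCL7B. ARID1A, SMARCC1 and ARID2 knockouts thus had more members lower under both references. The mean of the other knockouts overlaps the reference that chose the members, so it gave no independent check of direction. In the rest of the 11, the direction differed between the references.

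**Figure D5:**
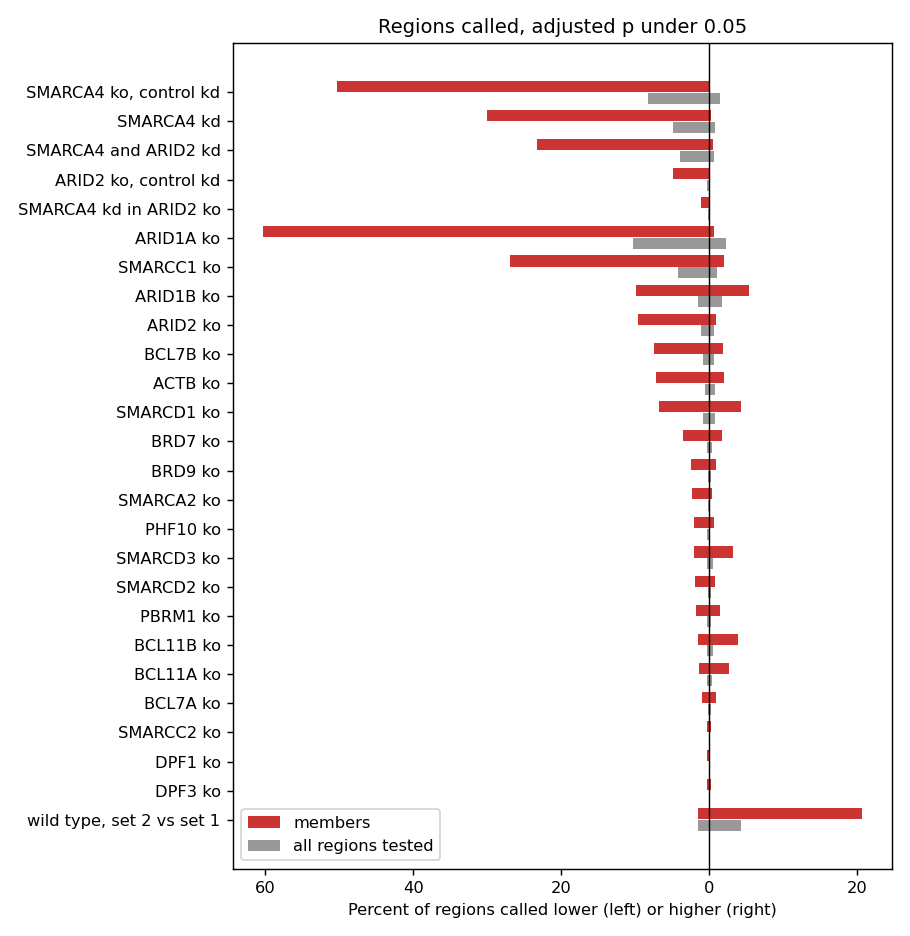
Percent of members (red) and of all regions tested (grey) called lower (left of 0) or higher (right of 0) in each contrast, edgeR adjusted p under 0.05 (ko, knockout; kd, knockdown). The widest red bars to the left are ARID1A knockout at 60.3% and SMARCA4 knockout with control knockdown at 50.3%, and the widest to the right is wild type of set 2 against set 1 at 20.7%.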

How the data were processed

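The authors deposited 2 tables of read counts per region (knockout, 56 libraries used; knockdown, 16 libraries) and a table of normalized values. The latter were treated as scores, made by the authors from the set 1 libraries before they were deposited, with a method and log base not given in the sources used here. Per the submitters' processing notes, Bowtie2 2.2.4, Picard 1.118, MACS2 2.1.1.20160309 and hg19 were used, without a stated role. Coordinates are as the files give them. The members and lists were chosen with earlier results of these data known. Each table was fitted whole with edgeR 4.0.16 (quasi-likelihood test, TMM scaling, low-count filter, Benjamini-Hochberg adjustment, threshold 0.05) in R 4.3.3, with DESeq2 1.42.0, limma 3.58.1 and other scalings as alternatives. The scripts were tested on simulated data. Named regions were the 8 members with the largest smaller gap, the members with the largest called change in each direction per contrast, and those nearest the thresholds. Of the knockout columns, 2 matched no listed sample and were not used, and 2 listed samples were not analysed here.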

Additional observations from a re-analysis of the deposited data

Results flagged for a closer look

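The effect of a knockout differed between clones at some members, by a test of the difference itself (edgeR). For ARID1B clones 7 and 5 it differed at 546 members, beside 1.27% lower and 3.7% higher of all regions tested. For BCL7B clones 8 and 10 it differed at 485, beside 0.901% lower and 3.41% higher. For ARID1A clones 3 and 10 it differed at 10, beside 0.0337% lower and 0.0261% higher. The ARID1B and BCL7B clones belong to different sets and were each compared with the wild type of their own set, so clone and set cannot be told apart there. The ARID1A clones are both in set 1.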

How the results depend on the processing

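The number of members was 3346 with the rule as given, 5393, 936 and 229 with thresholds of 0.4, 0.75 and 1, 1433 on the authors' normalized values and 1371 with wild type of set 2 as the reference, a choice made after seeing the data. Leaving out 1 library of DPF2 or SMARCA4 gave 3061 to 4946. On the authors' normalized values, all 3346 members lay above the reference in DPF2 knockout and 3068 below it in SMARCA4 knockout. The median differences were 0.70 and -0.47, and the median SMARCA4 difference of eligible regions was 0.22. Limma on the authors' normalized values called 1331 members lower without ARID1A, against 2018. Leaving out either wild-type library of set 1 gave 1760 to 2031 members called in any knockout. Leaving out 1 library of the groups compared gave 1342 to 1901 lower for ARID1A, 465 to 711 for SMARCC1, 974 to 1211 for SMARCA4 knockout with control knockdown, 468 to 560 for SMARCA4 knockdown, 246 to 384 for combined knockdown, 33 to 57 for ARID2 knockout, 8 to 35 for SMARCA4 knockdown in ARID2 knockout cells and 253 to 436 higher in wild type of set 2. With the replicate number as a block, 1182 members (against 779) were lower with combined knockdown, 401 (against 162) in ARID2 knockout cells, and 277 (against 38) with SMARCA4 knockdown in them. Members called in either direction in at least 1 of the 5 knockdown contrasts other than SMARCA4 knockout and SMARCA4 knockdown in wild type numbered 1407 with the block (against 865). The labels do not say that numbers pair samples: 25 of 28 same-numbered pairs in the knockdown table and 36 of 276 in set 1 had correlated deviations above 0.1. With the other knockouts as reference, more members were higher than lower in 11 knockouts that had more lower against wild type. For ARID1B and BCL7B among them, the set 2 clone was left out as well. With 1 wild-type library left out, the balance turned in BCL11A, SMARCD2 and SMARCD3 knockouts. Depth limits single members, with median counts of 18 to 117 per library. The cause of these changes was not tested beyond the smaller number of libraries.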
